A study of Mus musculus with 12 samples.

Results

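The proteasome genes of the islet transcriptome were taken by name: every transcript whose name begins with Psma, Psmb, Psmc, Psmd, Psme, Psmf or Psmg followed by a digit, without copies marked as duplicates and without pseudogenes. This gave 49 members among 24078 transcripts. All 49 passed the filter on low values and were tested together with the rest of the table. Of these, 48 encode subunits, assembly chaperones or regulators of the proteasome. Psmc3ip shares the letters of the name only, since its product binds Psmc3 but works in meiotic recombination.

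Islet RNA was sequenced from 12 male mice, 4 wild-type (WT), 4 heterozygous (Wfs1HZ) and 4 homozygous (Wfs1KO) for the Wfs1 mutation, with a separate library for each animal. The mice were F2 hybrids of 129S6/SvEvTac and C57BL/6 and were 5 to 6 months old. In the mutant allele a LacZ cassette takes the place of most of exon 8, so that a truncated Wfs1 protein fused to LacZ can still be made and the allele is not a complete knock-out. Islets were released with collagenase and picked by hand. Values are RPKM as deposited (reads scaled to transcript length and to the mapped reads of the library), and differences are on the log2(RPKM + 0.1) scale.

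The proteasome is the barrel-shaped protease that breaks down ubiquitin-tagged proteins, including misfolded proteins pulled back from the endoplasmic reticulum, the organelle in which the Wfs1 protein resides. Its 20S core is built of outer alpha rings and inner beta rings, and only Psmb5, Psmb6 and Psmb7 carry the cutting sites of the standard core. The 19S cap, made of Psmc ATPases and Psmd subunits, recognizes the ubiquitin tag and unfolds the substrate. Interferons induce Psmb8, Psmb9 and Psmb10, which replace the standard cutting subunits to form the immunoproteasome, and the PA28 activator made of Psme1 and Psme2.

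Psmb8 and Psmb9 lie in the major histocompatibility complex, interleaved with the genes of the peptide transporter Tap1 and Tap2 that loads proteasome products onto MHC class I. In GENCODE M21 on mm10 the order is Psmb9 (chr17:34181987-34187764, minus strand), Tap1 (chr17:34187553-34197225, plus strand), Psmb8 (chr17:34197721-34201454, plus strand) and Tap2 (chr17:34203527-34216321, plus strand). Between the RefSeq starts of Psmb9 and Tap1, which are read in opposite directions, lie only 225 bases of mm10. By the GENCODE limits given here, these bases lie inside the Psmb9 gene, which overlaps that of Tap1. This shared stretch is printed because the values of the genes on both sides of it are given for each animal. It is chr17:34187331-34187555, written on the minus strand towards Psmb9, and the capitals mark 1 GC box (GGGCGG) and 1 CCAAT box (found as ATTGG).
Psmb9-Tap1: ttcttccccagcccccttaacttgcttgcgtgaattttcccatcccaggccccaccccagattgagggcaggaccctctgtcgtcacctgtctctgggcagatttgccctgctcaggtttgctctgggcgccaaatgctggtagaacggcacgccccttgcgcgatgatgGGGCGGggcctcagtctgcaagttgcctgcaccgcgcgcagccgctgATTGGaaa

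Promoter windows (250 bases before to 50 bases after the start) from RefSeq on GRCm38 were matched for 41 of the 49 members, and not for Psma8, Psmb1, Psmb2, Psmb7, Psmc3, Psmd3, Psmd7 and Psmg2. In the window of Psmb8 the letters TTCNNNGAA, the form of an interferon gamma activated site, were found 97 bases before the RefSeq start. The GENCODE start of Psmb8 lies farther upstream, so that by GENCODE this match is inside the gene. In those of Psmb5 and Psmb6, the standard counterparts, the letters TGACNNNGC of an antioxidant-type element, which Nfe2l1 and Nfe2l2 can bind, were found 47 and 9 bases before the start. The 3 stretches are shown with the matches in capitals because these genes are compared in each animal here: Psmb8 is chr17:34198078-34198126 on the plus strand, Psmb5 is chr14:54618014-54618062 on the minus strand and Psmb6 is chr11:70525328-70525356 on the plus strand.
Psmb8: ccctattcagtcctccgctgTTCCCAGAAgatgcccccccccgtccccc
Psmb5: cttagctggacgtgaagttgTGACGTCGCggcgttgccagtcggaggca
Psmb6: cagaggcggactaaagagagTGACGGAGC

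On both strands, TGACNNNGC was found in 6 of the 41 members (14.6%) and in 14% of all genes with a window, and TTCNNNGAA in 3 members (7.32%) against 9.55% of all genes. An interferon-stimulated element of spaced GAAA repeats was found in 5 members (12.2%; Psmb3, Psmd4, Psmd9, Psme1 and Psmg4) against 3.99% of all genes, and in none of Psmb8, Psmb9, Psmb10 and Psme2. GC boxes (GGGCGG) were found in 23 members (56.1%) and in 38.2% of all genes, and CCAAT in 36.6% and 41.1%. The ER stress element (ERSE, a CCAAT and a CCACG at fixed spacing) was in none of the 41 windows, and in 0.137% of all genes. These are matches of letters in a short window and say nothing of binding.

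The libraries differed in depth, with 2197000 to 9569000 reads behind the RPKM as estimated from short RNA genes, so that 3 reads on a transcript of 2 kb stood for 0.157 to 0.683 RPKM. The paper states a much higher number of reads per sample, and the reason for this gap was not examined. Wfs1, the targeted gene, had 28.6 ± 3.83 RPKM in WT, 11.1 ± 5.59 in Wfs1HZ and 4.4 ± 1.83 in Wfs1KO islets (SD, n = 4), and Wfs1HZ replicate 2, at 4.69 RPKM, lay within the range of the Wfs1KO animals. Insulin RNA was abundant in every animal, while the beta cell factor Mafa was listed at 0 in 10 of 12. RNA of the acinar markers (4 of 5 listed genes in the table, none at 0 in any animal) summed to 46131 to 101384 RPKM in WT, 7451 to 275149 in Wfs1HZ and 7120 to 242038 in Wfs1KO islets. The lowest sums belonged to Wfs1KO replicate 4 and Wfs1HZ replicate 2, and the highest to Wfs1HZ replicate 4 and Wfs1KO replicate 3. In RNA of whole islet preparations, fewer cells of a type and less RNA per cell cannot be told apart.

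The proteasome genes were among the well expressed genes of the islet. Their median WT level was 34.2 RPKM, against 1.985 RPKM over the 21701 transcripts tested, and 47 of 49 lay above that median. A level of more than 10 RPKM in WT was found for 40 members, and none was listed at 0 in any animal. The 2 members under 1 RPKM were the tissue forms Psma8, the alpha subunit of the testis (0.355 RPKM in WT), and Psmb11, the cutting subunit of the thymus (0.11 RPKM). Their levels rest on a median of 3.0 estimated reads per animal for Psma8 and 4.1 for Psmb11, close to the floor of 3 reads.

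**Figure D1:**
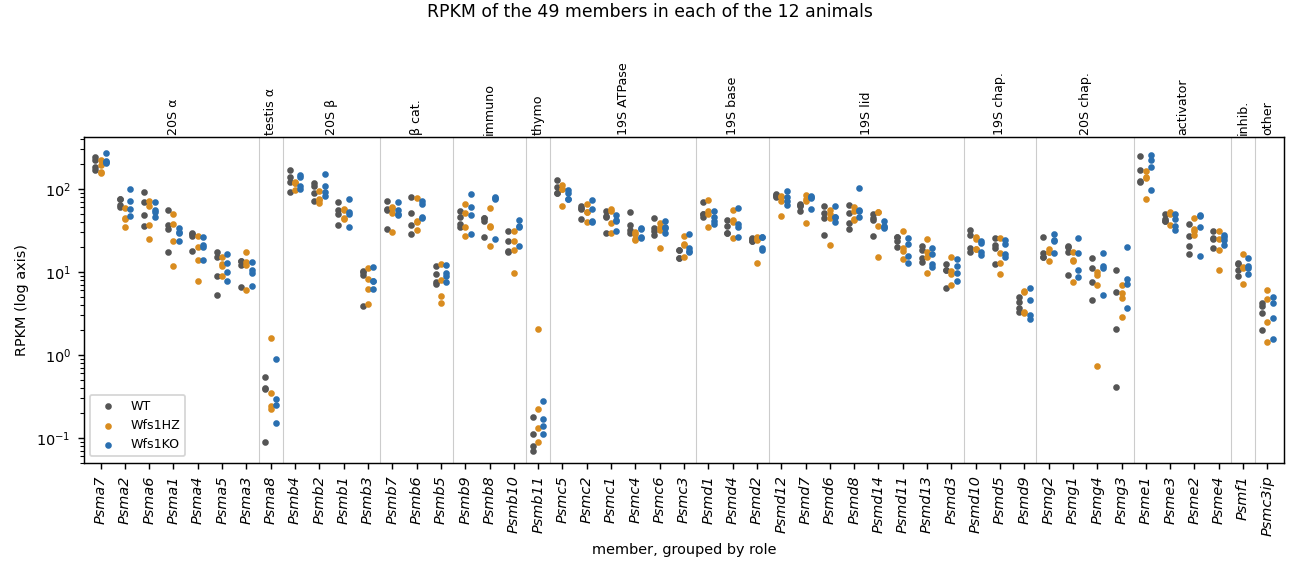
RPKM of the 49 members (log axis) in each of the 12 animals, grouped by role (20S alpha and beta rings, cutting subunits, immunoproteasome, thymoproteasome, 19S ATPases, base and lid, assembly chaperones, activators, inhibitor), with 1 point for each animal in the colour of its genotype. Members of the same ring differed up to 17.9-fold in WT level, and Psma8 and Psmb11 lay far below the rest.

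Subunits that are built into the same particle in equal number did not have equal RNA levels. In the alpha ring, which forms the gate of the core, WT means ran from 11.4 RPKM for Psma3 to 204 RPKM for Psma7, a 17.9-fold range. The non-cutting beta subunits ran from 8.24 RPKM for Psmb3 to 130 RPKM for Psmb4, a 15.7-fold range. Among the 6 ATPases that unfold substrates the range was 6.26-fold, from Psmc3 (16.4 RPKM) to Psmc5 (102 RPKM). The other base subunits lay close together, from Psmd2 (24.4 RPKM) to Psmd1 (53.6 RPKM), and those of the lid ran from Psmd3 (9.89 RPKM) to Psmd12 (82.9 RPKM). The WT levels of the assembly chaperones overlapped those of the lower subunits. Those of the cap ran from Psmd9 (4.05 RPKM) to Psmd10 (23.95 RPKM) and those of the core from Psmg3 (4.64 RPKM) to Psmg2 (18.3 RPKM).

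Near-identical copies limit how levels can be compared. Over at least 300 aligned bases, Psma3, Psma4, Psma5, Psmb3, Psmb5, Psmc1, Psmd2, Psmd11 and Psme2 match another annotated transcript at an identity of 95% or more, and reads shared by such copies cannot be divided here. Apart from the tissue forms, Psmb3 and Psmb5 had the lowest levels of the beta subunits and Psma3 of the alpha subunits, and all 3 are among them. Psmb7, Psmd13 and Psmc3ip overlap a neighbouring gene (Nek6, Sirt3 and Mlx), and whether reads were counted by strand is not stated.

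On the deposited scale the spread over the 12 animals was smallest for the activator Psme3, with a coefficient of variation of 15.4% (31.6 to 51.9 RPKM), followed by the lid subunit Psmd12 and the alpha subunit Psma7 (16.6%). Among the subunits of the core and its activators the widest spreads were those of Psmb8 (44.8%, 20.4 to 80.5 RPKM), Psma1 (39.2%), Psmb10 (37.6%), Psme1 (36.2%) and Psmb9 (36.1%). The core chaperones Psmg3 (77.8%, down to 1.1 estimated reads) and Psmg4 (48.8%, down to 2.0 estimated reads) were more variable still. Psma8 and Psmb11 had spreads of 93.1% and 182%, each with its highest value in Wfs1HZ replicate 2, where they reached 1.61 and 2.02 RPKM.

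The 31 standard subunits of the 26S particle (14 of the core and 17 of the cap) differed between animals within each genotype. Their summed RPKM ran from 1277 to 1901 in WT, from 996 to 1734 in Wfs1HZ and from 1283 to 1890 in Wfs1KO islets. Wfs1HZ replicate 4 held the lowest value of 20 of the 31. With median-of-ratios scaling, which sets the typical transcript of each library to the same level, it held the lowest value of 3, and Wfs1HZ replicate 2 of 12. On the deposited scale WT replicate 1 and Wfs1KO replicate 1 each held the highest value of 10, and with median-of-ratios scaling of 10 and 7.

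**Figure D2:**
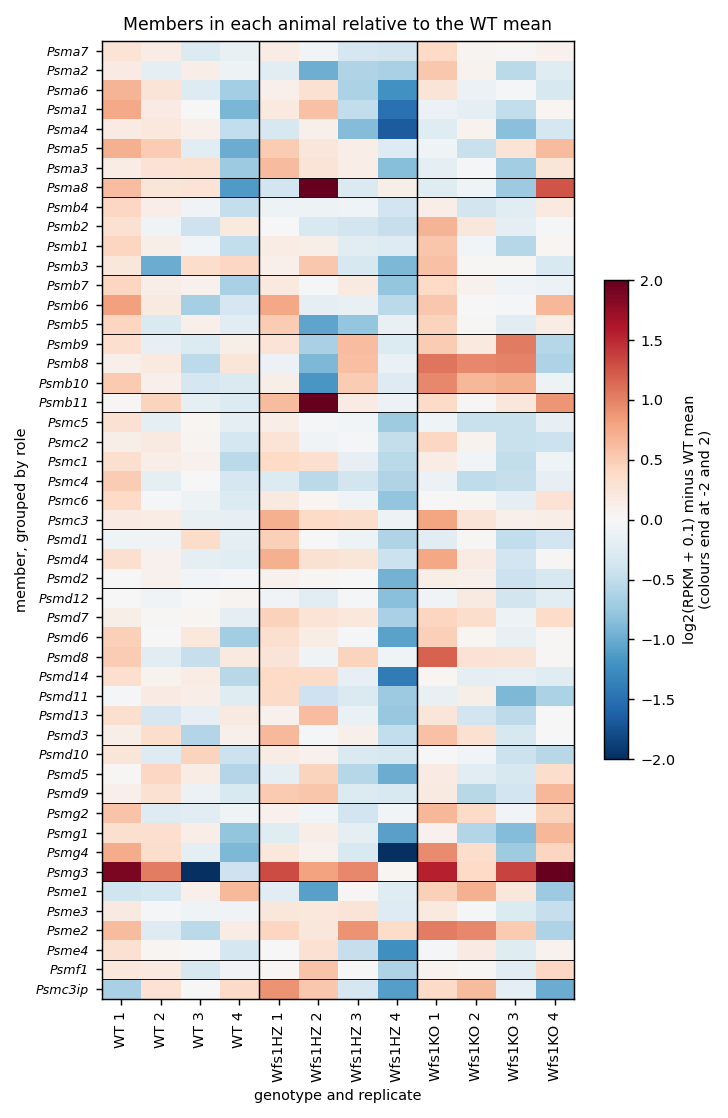
Members (rows, grouped by role) in each animal (columns), as log2(RPKM + 0.1) minus the mean of the 4 WT animals, red for higher and blue for lower, with colours ending at -2 and 2. Psmb8 and Psmb10 are red in Wfs1KO replicates 1 to 3 and pale or blue in replicate 4, and most standard subunits are blue in Wfs1HZ replicate 4.

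Wfs1KO islets were first compared with WT, the main contrast of the study. None of the 49 members passed an FDR of 0.05 in the limma test with Benjamini-Hochberg adjustment, where 0.0138% of all transcripts did (3 of 21701). The edgeR test of the paper called more genes at this threshold in the same comparison. None of the members had an unadjusted p under 0.05 either, against 5.64% of all transcripts (3.91% on the higher and 1.74% on the lower side), and in none were the animals of the groups apart, against 2.74%. Of the members 25 were higher and 24 lower in Wfs1KO, and their median log2 difference was 0.04, that of all transcripts being 0.07 and 57.4% of them being higher. Of the 31 standard subunits, 14 were higher and 17 lower, with log2 differences between -0.39 and 0.44. The 7 assembly chaperones split into 3 higher and 4 lower.

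The 5 interferon-induced members, Psmb8, Psmb9, Psmb10, Psme1 and Psme2, were all on the higher side in Wfs1KO, with log2 differences from 0.17 to 0.60 and a median of 0.47, none past the test. Psmb10, the immunoproteasome form of Psmb7, had the lowest p of all members. It measured 31.1, 23.3, 17.2 and 17.7 RPKM in WT, 23.5, 9.65, 30.8 and 18.1 RPKM in Wfs1HZ, and 42.4, 34.5, 35.5 and 20.3 RPKM in Wfs1KO replicates 1 to 4. The first 3 Wfs1KO animals lay above every other animal and the last within the WT range. The log2 difference of Wfs1KO from WT was 0.56 ± 0.28 (SE; 95% interval -0.06 to 1.18; limma p = 0.0711, adjusted p = 0.879; exact two-sided permutation p = 0.14).

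Psmb8, the immunoproteasome form of Psmb5, measured 40.8, 43.9, 26.5 and 45.0 RPKM in WT, 35.2, 20.4, 58.2 and 34.7 RPKM in Wfs1HZ, and 80.5, 74.4, 76.4 and 25.0 RPKM in Wfs1KO islets. In 3 of 4 Wfs1KO animals it was above all other animals, and in Wfs1KO replicate 4 it was below all 4 WT animals. The means were 39.1 ± 8.54 RPKM in WT, 37.1 ± 15.6 RPKM in Wfs1HZ and 64.1 ± 26.2 RPKM in Wfs1KO (SD, n = 4). The log2 difference from WT was 0.60 ± 0.38 (SE; 95% interval -0.26 to 1.46; limma adjusted p = 0.892).

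Psmb9, the immunoproteasome form of Psmb6, measured 53.4, 37.6, 34.8 and 45.9 RPKM in WT, 51.2, 27.1, 65.3 and 35.0 RPKM in Wfs1HZ, and 60.4, 48.7, 87.3 and 28.6 RPKM in Wfs1KO islets. The groups overlapped widely, with a log2 difference of 0.30 ± 0.32 between Wfs1KO and WT (SE; 95% interval -0.42 to 1.02; limma adjusted p = 0.937). Its divergent neighbour Tap1 measured 5.19, 4.48, 4.39 and 8.43 RPKM in WT, 9.22, 10.4, 8.43 and 8.06 RPKM in Wfs1HZ, and 15.5, 10.8, 12.4 and 8.19 RPKM in Wfs1KO islets. Tap1 had a log2 difference of 1.06 ± 0.28 between Wfs1KO and WT (SE; 95% interval 0.44 to 1.69; limma p = 0.0039, adjusted p = 0.835; exact permutation p = 0.057), and only Wfs1KO replicate 4 and WT replicate 4 overlapped.

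**Figure D3:**
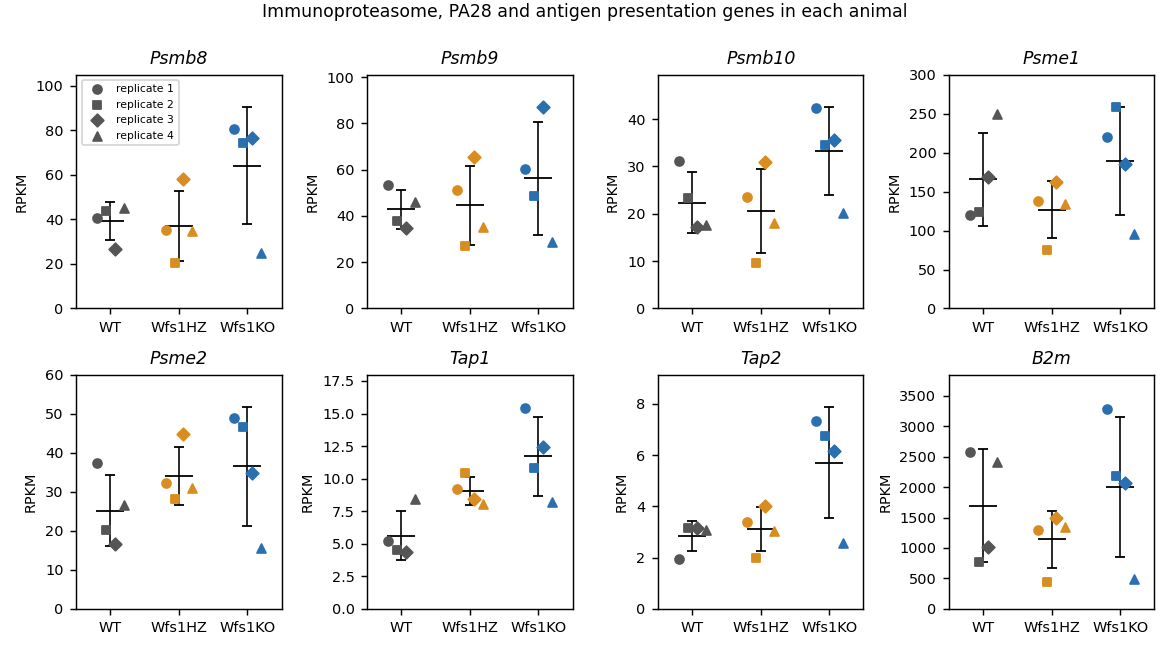
RPKM of Psmb8, Psmb9, Psmb10, Psme1, Psme2, Tap1, Tap2 and B2m in each animal, with the marker shape giving the replicate number, the bar the mean and the whiskers the SD of 4 animals. In Wfs1KO the triangle (replicate 4) is the lowest of the 4 animals in every panel, as for Psmb8 at 25.0 against 74.4 to 80.5 RPKM.

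The PA28 subunits, which open the gate of the core, overlapped between the genotypes. Psme1, the most abundant regulator, measured 120, 124, 169 and 249 RPKM in WT, 138, 74.7, 162 and 134 RPKM in Wfs1HZ, and 220, 258, 185 and 95.9 RPKM in Wfs1KO islets. Psme2 measured 37.4, 20.2, 16.6 and 26.6 RPKM in WT, 32.3, 28.1, 44.9 and 31.1 RPKM in Wfs1HZ, and 48.9, 46.7, 34.8 and 15.6 RPKM in Wfs1KO islets. Wfs1KO replicate 4 was the lowest of all 12 animals for Psme2, and Wfs1HZ replicate 2 for Psme1, Psmb8, Psmb9 and Psmb10. The log2 differences between Wfs1KO and WT were 0.17 (95% interval -0.63 to 0.97) for Psme1 and 0.47 (95% interval -0.41 to 1.36) for Psme2.

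The values of these genes moved with Wfs1KO replicate 4. With the other 3 Wfs1KO animals against WT, the log2 difference was 1.01 for Psmb8 (95% interval 0.52 to 1.49; limma p = 0.0014, adjusted p = 0.279; exact permutation p = 0.029), 0.78 for Psmb10 (unadjusted p = 0.0105), 0.84 for Psme2 (unadjusted p = 0.0209) and 0.59 for Psmb9 (unadjusted p = 0.0436). These 4 were then the members with an unadjusted p under 0.05, which is 8.16% of members against 8.62% of all transcripts, so the count is no larger than that of the whole table, and none passed the FDR. Each of the 8 animals of this comparison was left out in turn, and no other omission gave more than 3 members. The 3 came without WT replicate 1 (6.12%, against 5.2% of all transcripts). Psmb9 stood at 0.050 without Wfs1KO replicate 3. Wfs1KO replicate 4 and Wfs1HZ replicate 2 were also the animals with the least acinar RNA. Their beta cell marker sums were the lowest of all animals (22269 and 12477 RPKM, the next being 31958 in WT replicate 2). These sums were carried by Ins1, Ins2 and Iapp. By mean log2 level of the beta cell markers the same animals were at 6.88 and 6.24, with WT replicate 2 at 6.91 and Wfs1KO replicate 3 at 6.97. The beta cell marker Pdx1 was highest of all animals in Wfs1KO replicate 4 (21.3 RPKM) and at 7.72 RPKM in Wfs1HZ replicate 2. The stromal marker sums of both were the highest (27.1 and 48.8 RPKM, the next being 13.7 in WT replicate 3). The alpha and PP cell marker sums, carried by Gcg and Ppy, were also highest of all animals in Wfs1KO replicate 4 (217171 and 18204 RPKM). In Wfs1HZ replicate 2 they were 155290 and 11123 RPKM, below the highest WT animal for alpha (182244 RPKM) and above it for PP (8388 RPKM). Both libraries were shallow, with 3286000 and 2197000 estimated reads. WT replicate 3 had 2902000, and every other library had at least 5018000. Of the beta cell markers 4 of 5 tested were lower and of the endothelial markers 3 of 3 were higher in Wfs1KO than in WT, with 1 of each under an unadjusted p of 0.05. Of the ductal markers 2 of 4 were higher, 1 of them under an unadjusted p of 0.05 with its animals apart, and of the stromal markers 2 of 3 (median log2 difference 0.96), none under it. The part of other cell types, of beta cell content and of read depth in these values was not tested.

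Immune cells hold immunoproteasome RNA, and the immune markers (8 of 9 listed genes in the table) summed to 62.9 to 234 RPKM in WT, 57.8 to 114 in Wfs1HZ and 30.1 to 176 in Wfs1KO islets. None of the 8 had an unadjusted p under 0.05 in any of the 3 comparisons. Their sum, carried mostly by Cd68 and Cd74, was lowest in Wfs1KO replicate 4, where the MHC class II invariant chain Cd74 stood at 12.6 RPKM against 72.5 to 116 in the other Wfs1KO animals. By the mean log2 level of the 8 markers, Wfs1KO replicate 4 (0.85) was above Wfs1HZ replicate 4 (0.57) and WT replicate 1 (0.70), and Wfs1HZ replicate 2, low by sum, was the highest of all 12. Ptprc (CD45), the marker of all leukocytes, was at 0.87 to 1.52 RPKM in all 4 Wfs1KO animals and at 7.61 RPKM in Wfs1HZ replicate 2, the animal with the lowest Psmb8. Aif1 was listed at 0 in 4 animals and Cd79a in 1. The part of immune cells in the levels of the immunoproteasome genes was not tested.

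B2m, the light chain of MHC class I, was taken as a measure of the interferon-responsive presentation pathway after the values had been seen. The adjustment below does not cover this choice among the 10 listed genes of antigen presentation and interferon response. Over the 12 animals, which share their dissection and depth with every gene compared, Psmb8 followed B2m with Pearson's r = 0.80 (permutation p = 0.0017, adjusted over 8 relations p = 0.0068) and Spearman's rho = 0.78 (permutation p = 0.0045, adjusted p = 0.026). For Psmb9, Psmb10, Psme1 and Psme2 r was 0.78, 0.73, 0.80 and 0.71 and rho 0.73, 0.67, 0.66 and 0.73, with adjusted permutation p-values between 0.00676 and 0.0383. For the standard cutting subunits Psmb5, Psmb6 and Psmb7 r was 0.45, 0.10 and 0.13 (adjusted permutation p = 0.185, 0.746 and 0.746) and rho 0.34, 0.20 and 0.35 (adjusted permutation p = 0.329, 0.545 and 0.329). Without the 2 animals farthest from the median of B2m, r was 0.62, 0.56, 0.59, 0.56 and 0.72 for Psmb8, Psmb9, Psmb10, Psme1 and Psme2. Within genotypes, as deviations from the genotype means, r was 0.83, 0.79, 0.75, 0.78 and 0.88. With median-of-ratios scaling r of Psmb5 was 0.65 (adjusted permutation p = 0.029) and that of Psmb7 0.55. Without the 2 farthest animals these were 0.39 and -0.0020, and those of the 5 induced genes 0.62 to 0.75. B2m measured 3291, 2179, 2060 and 482 RPKM in Wfs1KO replicates 1 to 4, and the beta cell marker Iapp 8829, 7010, 5273 and 3229 RPKM. In WT the 2 genes also ranked the animals alike, in Wfs1HZ they did not, and Wfs1HZ replicate 2 was the lowest of all 12 for both. The part of islet cell make-up in these correlations was not tested.

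For the standard cutting subunits the 95% interval of the difference included 0 in every comparison. The largest log2 differences were those of Psmb5. They were 0.46 in Wfs1KO against Wfs1HZ (95% interval -0.33 to 1.26) and -0.37 in Wfs1HZ against WT (95% interval -1.17 to 0.43). Psmb5, the chymotrypsin-like subunit and the target of proteasome inhibitors, measured 11.8, 7.14, 9.40 and 7.49 RPKM in WT, 12.5, 4.16, 5.12 and 7.96 RPKM in Wfs1HZ, and 12.0, 8.91, 7.50 and 9.70 RPKM in Wfs1KO islets. The log2 difference between Wfs1KO and WT was 0.10 (95% interval -0.42 to 0.61; limma adjusted p = 0.981). Psmb6, the caspase-like subunit, measured 80.4, 51.6, 28.7 and 36.2 RPKM in WT, 78.4, 39.9, 41.3 and 31.4 RPKM in Wfs1HZ, and 66.1, 46.0, 44.4 and 72.1 RPKM in Wfs1KO islets. Here the interval of the difference ran from -0.44 to 1.02 around 0.29. Psmb7, the trypsin-like subunit, measured 70.4, 56.9, 55.2 and 33.2 RPKM in WT, 59.7, 51.2, 59.0 and 30.4 RPKM in Wfs1HZ, and 68.6, 55.3, 49.6 and 47.9 RPKM in Wfs1KO islets. Its difference was 0.07 (95% interval -0.47 to 0.62), the animals of all groups being mixed.

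Each induced subunit was set against the standard subunit it replaces, per length and within an animal. Psmb8 had 4.61 ± 1.72 times the RPKM of Psmb5 in WT, 5.86 ± 3.78 times in Wfs1HZ and 6.95 ± 3.25 times in Wfs1KO islets (SD, n = 4), although reads of Psmb5 (8.2 to 103 estimated reads) are shared with a copy. In Wfs1KO the ratio was 6.69, 8.35 and 10.2 in replicates 1 to 3 and 2.57 in replicate 4. Psmb9 and Psmb6 were at about the same level, with ratios of 0.968 ± 0.316, 1.01 ± 0.438 and 1.08 ± 0.653. Psmb10 had 0.424 ± 0.0908 times the RPKM of Psmb7 in WT, 0.426 ± 0.179 in Wfs1HZ and 0.595 ± 0.123 in Wfs1KO. The ranges of the 3 genotypes overlapped for all 3 ratios.

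The remaining regulators were more even. Psme3, the nuclear PA28 gamma activator that works without ubiquitin, measured 49.1, 43.0, 41.2 and 41.3 RPKM in WT, 50.7, 50.2, 51.9 and 36.5 RPKM in Wfs1HZ, and 49.6, 43.0, 35.9 and 31.6 RPKM in Wfs1KO islets. Psme4, the PA200 activator, measured 30.8, 25.6, 25.0 and 19.4 RPKM in WT, 24.6, 30.8, 18.1 and 10.6 RPKM in Wfs1HZ, and 24.5, 27.8, 20.9 and 26.1 RPKM in Wfs1KO islets. Psmf1, the PI31 protein first described as an inhibitor of the core, measured 12.9, 12.5, 8.84 and 10.5 RPKM in WT, 11.4, 16.5, 11.1 and 7.14 RPKM in Wfs1HZ, and 11.6, 11.2, 9.39 and 14.8 RPKM in Wfs1KO islets. All 3 overlapped between genotypes, with Wfs1KO to WT log2 differences of -0.14 (95% interval -0.54 to 0.25), -0.01 (95% interval -0.42 to 0.39) and 0.07 (95% interval -0.39 to 0.52). After median-of-ratios scaling Psmf1 had the smallest spread of all 49 members, 8.88% over 12 animals, and Psme3 was at 18.2%.

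Besides Psmb10, the lowest p-values against WT belonged to Psmg3, Psmd11, Psmc3 and Psmc5, and none passed the test. Psmg3, a chaperone of alpha ring assembly, measured 10.4, 5.69, 0.41 and 2.04 RPKM in WT, 6.93, 4.86, 5.48 and 2.83 RPKM in Wfs1HZ, and 8.28, 3.66, 7.20 and 19.8 RPKM in Wfs1KO islets. Its log2 difference of 1.53 was the largest of all members and had a 95% interval from -0.48 to 3.54, and the lowest WT animal, replicate 3, had about 1.1 reads of it. The difference was 0.70 without that animal and 2.15 without WT replicate 1. Psmd11, a lid subunit, measured 23.2, 26.5, 25.9 and 20.0 RPKM in WT, 31.0, 17.7, 19.4 and 14.3 RPKM in Wfs1HZ, and 21.4, 25.8, 12.7 and 15.3 RPKM in Wfs1KO islets (Wfs1KO to WT log2 difference -0.39, 95% interval -0.92 to 0.14). The ATPases Psmc3 and Psmc5 lay on opposite sides of WT. Psmc3 measured 18.2, 18.1, 14.7 and 14.6 RPKM in WT, 26.7, 21.4, 20.9 and 15.2 RPKM in Wfs1HZ, and 28.2, 19.6, 17.5 and 17.8 RPKM in Wfs1KO islets (log2 difference 0.32, 95% interval -0.12 to 0.76). Psmc5 measured 126, 89.9, 104 and 90 RPKM in WT, 112, 99.8, 98.2 and 61.7 RPKM in Wfs1HZ, and 95.4, 74.8, 74.8 and 90.1 RPKM in Wfs1KO islets (log2 difference -0.28, 95% interval -0.68 to 0.12). These ATPases stand in the same ring of the cap.

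**Figure D4:**
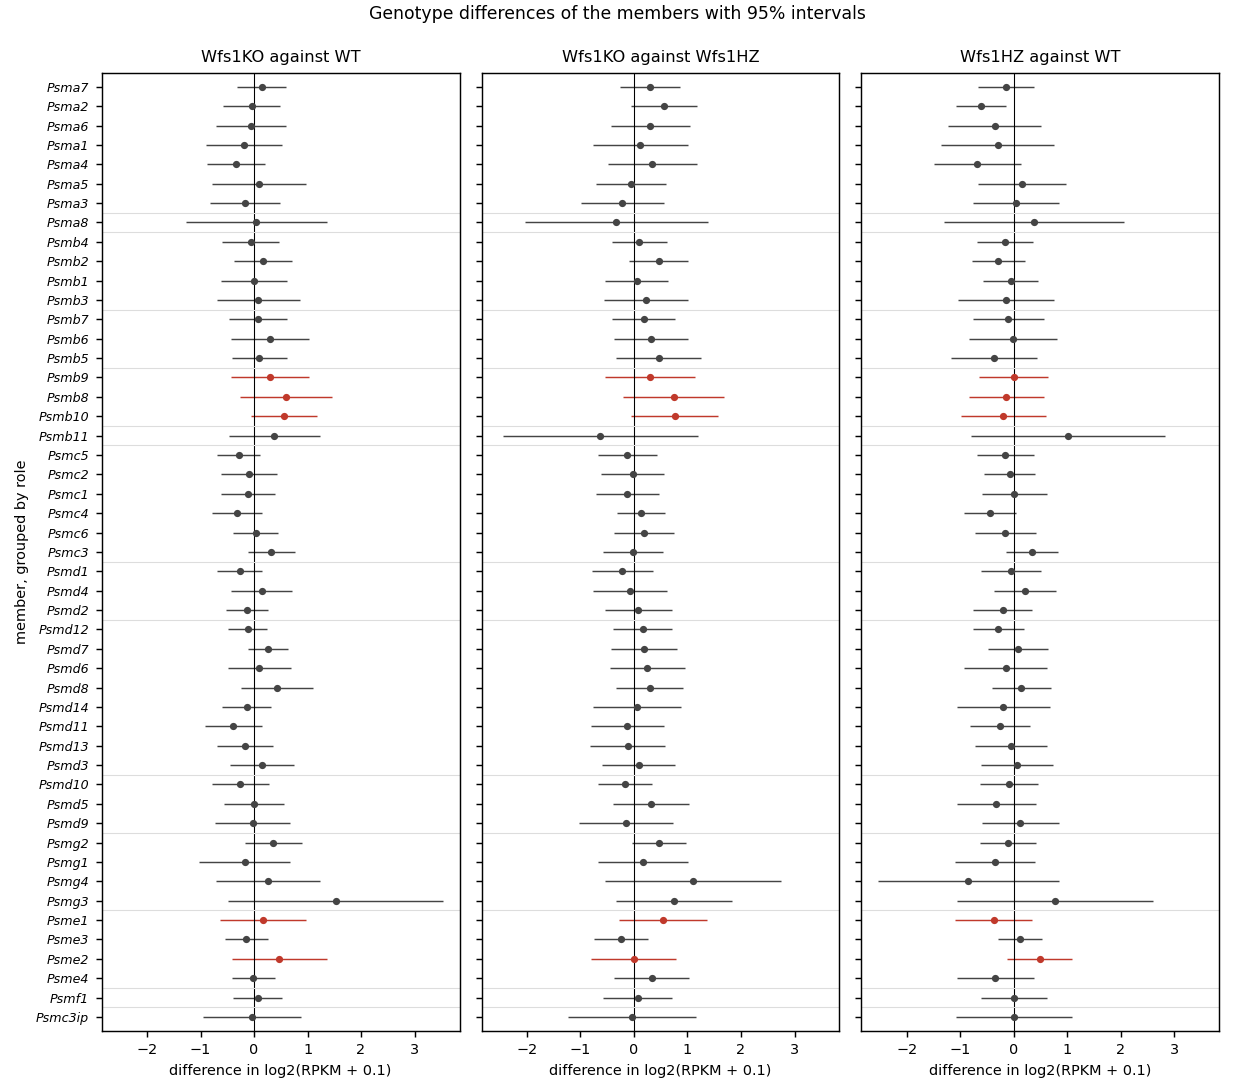
Differences in log2(RPKM + 0.1) of the 49 members between genotypes (points) with 95% intervals (lines), grouped by role, for Wfs1KO against WT, Wfs1KO against Wfs1HZ and Wfs1HZ against WT on the same axis. Red marks Psmb8, Psmb9, Psmb10, Psme1 and Psme2. Psma2 in Wfs1HZ against WT is the member whose interval, -1.07 to -0.15, does not include 0.

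Wfs1KO islets were next compared with Wfs1HZ islets, which share the Wfs1KO animals with the comparison above. No transcript of the table passed an FDR of 0.05 (0% of 21701), and 532 had an unadjusted p under 0.05 (2.45%, with 1.7% on the higher side). The edgeR test of the paper did call genes at this FDR in the same comparison, so the 0% belongs to limma on RPKM. No member had an unadjusted p under 0.05 and in none were the animals apart, against 1.43% of all transcripts. Of the members 32 were higher in Wfs1KO (53.5% of all transcripts were), with a median log2 difference of 0.13 against 0.04 over all. Without Wfs1HZ replicate 4, the animal with the lowest 26S values, 19 of 49 were higher with a median of -0.04, and of all transcripts 33.4% were higher with a median of -0.20.

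The lowest p-values in this comparison belonged to Psmb10, Psma2, Psmg2, Psmb2 and Psmb8. The log2 difference was 0.76 for Psmb10 (95% interval -0.06 to 1.58; limma p = 0.0658, adjusted p = 1; exact permutation p = 0.14) and 0.74 for Psmb8 (95% interval -0.20 to 1.69). With Wfs1KO replicate 4 left out these were 0.98 (unadjusted p = 0.0283) and 1.15 (unadjusted p = 0.0075), and Psme1 stood at 0.84 (unadjusted p = 0.0294), with an adjusted p of 1 for each in limma. In that setting 3 of 49 members (6.12%) and 3.6% of all transcripts had an unadjusted p under 0.05. The same 3 genes were the members under an unadjusted p of 0.05 when Wfs1HZ replicate 2 was left out as well, a setting chosen after seeing the data. Their animals were then apart, as were those of 9.89% of all transcripts (6.12% of members). In that setting the log2 differences were 0.89 for Psmb8, 0.66 for Psmb10 and 0.61 for Psme1, and 5.9% of all transcripts had an unadjusted p under 0.05, close to the 6.12% of members. Without the animals of highest acinar RNA, Wfs1HZ replicate 4 and Wfs1KO replicate 3, also chosen after seeing the data, Psmb8 stood at 0.61 (unadjusted p = 0.302).

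Psmb2, a non-cutting beta subunit, measured 116, 87.8, 70.3 and 107 RPKM in WT, 93.1, 75.6, 72.4 and 68.0 RPKM in Wfs1HZ, and 149, 109, 82.4 and 92.3 RPKM in Wfs1KO islets. A single Wfs1HZ animal reached the Wfs1KO range, and the log2 difference was 0.46 (95% interval -0.09 to 1.01; exact permutation p = 0.086). Psmg2, the chaperone that works as a pair with Psmg1 on the alpha ring, measured 26.4, 14.9, 15.2 and 16.8 RPKM in WT, 18.8, 17.2, 13.6 and 17.1 RPKM in Wfs1HZ, and 28.4, 23.3, 17.1 and 24.3 RPKM in Wfs1KO islets. Its log2 difference was 0.47 (95% interval -0.04 to 0.97), and its Wfs1KO replicate 3 lay within the Wfs1HZ range. The activators Psme1 and Psme2, which form a joint ring, were at 0.54 (95% interval -0.27 to 1.36) and -0.01 (95% interval -0.80 to 0.78).

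Wfs1HZ islets were last compared with WT. No transcript passed an FDR of 0.05 (0% of 21701), and 511 had an unadjusted p under 0.05 (2.35%, with 1.27% on the lower side). Of the members 14 were higher and 35 lower in Wfs1HZ, where 53.2% of all transcripts were higher, and the median log2 difference was -0.11 against 0.04 over all. Of the 31 standard subunits, 23 were lower. Without Wfs1HZ replicate 4, 30 of 49 members were higher with a median of 0.08, and all transcripts moved with them, 70.4% being higher with a median of 0.25.

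Psma2, an alpha ring subunit, was the only member with an unadjusted p under 0.05 and the only member whose animals were apart. Each count is 2.04% of members, against 2.35% and 1.66% of all transcripts, and so close to the share of the whole table. It measured 76.1, 59.6, 75.0 and 63.2 RPKM in WT, 58.8, 34.6, 44.8 and 43.3 RPKM in Wfs1HZ, and 99.0, 71.4, 46.8 and 57.4 RPKM in Wfs1KO islets. Every WT animal was above every Wfs1HZ animal, the closest values being 59.6 and 58.8 RPKM, while Wfs1KO spanned both. The log2 difference was -0.61 ± 0.21 (SE; 95% interval -1.07 to -0.15; limma p = 0.0149, adjusted p = 1; exact two-sided permutation p = 0.029, the smallest that 4 against 4 animals allow). With median-of-ratios scaling the log2 difference of Psma2 was -0.56 (95% interval -1.21 to 0.08; unadjusted p = 0.081), and over all settings it lay between -0.74 and -0.49.

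Next in order of p came Psmc4, Psma4, Psme2 and Psmc3. Psmc4, an ATPase of the cap, measured 51.8, 31.8, 36.7 and 28.9 RPKM in WT, 30.2, 25.0, 28.3 and 23.8 RPKM in Wfs1HZ, and 33.6, 25.4, 26.4 and 32.3 RPKM in Wfs1KO islets. The log2 difference between Wfs1HZ and WT was -0.44 (95% interval -0.93 to 0.04). Psma4, of the alpha ring, measured 28.2, 29.1, 26.9 and 17.8 RPKM in WT, 20.1, 27.0, 13.8 and 7.80 RPKM in Wfs1HZ, and 21.2, 26.2, 14.0 and 19.7 RPKM in Wfs1KO islets, with a log2 difference of -0.68 (95% interval -1.49 to 0.13). For Psma4 the unadjusted limma p was 0.0082 with median-of-ratios scaling. In that setting no member had a limma adjusted p under 0.962. Of the members 2.04% had an unadjusted p under 0.05 there, against 4.13% of all transcripts. Psme2 and Psmc3 were on the higher side in Wfs1HZ, at 0.48 (95% interval -0.14 to 1.09) and 0.34 (95% interval -0.14 to 0.82).

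Among 41 tested genes of the same pathway outside the 49, none passed an FDR of 0.05 in any comparison, and 4, 0 and 3 had an unadjusted p under 0.05 in Wfs1KO against WT, Wfs1KO against Wfs1HZ and Wfs1HZ against WT (9.76%, 0% and 7.32%, against 5.64%, 2.45% and 2.35% of all transcripts). The 4 in Wfs1KO against WT were all on the higher side, among them Tap1, Tap2 (0.90) and the oxidative stress factor Nfe2l2 (0.40). Of 10 genes of antigen presentation and interferon response, 7 were higher in Wfs1KO than in WT and 9 higher than in Wfs1HZ, where 57.4% and 53.5% of all transcripts were. Among these, Nlrc5, the activator of MHC class I genes, had a log2 difference of 1.22 (95% interval -0.04 to 2.47) and Tapbp, the tapasin that bridges Tap to MHC class I, 0.67 (95% interval -0.04 to 1.39) against Wfs1HZ. The 3 in Wfs1HZ against WT were Tap1 (0.72; unadjusted p = 0.0235), the ubiquitin shuttle Ubqln4 (0.51; unadjusted p = 0.0436, animals apart) and the peptide-trimming enzyme Erap1 (-0.55, animals apart).

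None of the related genes named next, some of which control proteasome supply, passed the test. Of 5 listed regulators of proteasome genes, 4 were higher in Wfs1KO than in WT, where 57.4% of all transcripts were. Among these 5 only Nfe2l2, named above, had an unadjusted limma p under 0.05, as did 5.64% of all transcripts. Nfe2l1, the transcription factor that raises proteasome genes when the proteasome is inhibited, measured 89.1 ± 3.34 RPKM in WT, 89.4 ± 19.5 in Wfs1HZ and 91.4 ± 14.9 in Wfs1KO islets (SD, n = 4). Pomp, the chaperone that matures the core, measured 226 ± 27.6, 195 ± 26.3 and 235 ± 30.2 RPKM. Adrm1, the ubiquitin receptor of the cap, measured 2.33 ± 0.764, 2.56 ± 1.17 and 2.15 ± 0.919 RPKM, and the cap-bound deubiquitinase Usp14 13.5 ± 4.78, 12.1 ± 6.82 and 15.8 ± 5.98 RPKM. The interferon-induced factor Irf1 measured 16.1 ± 1.78, 18.3 ± 8.82 and 19.1 ± 4.03 RPKM. The 95% intervals of Wfs1KO against WT were -0.35 to 0.39 for Nfe2l1, -0.38 to 0.49 for Pomp, -1.24 to 0.88 for Adrm1, -0.53 to 0.97 for Usp14, -0.21 to 0.65 for Irf1 and -1.45 to 1.73 for B2m.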

How the data were processed

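Total islet RNA was amplified to cDNA (Ovation RNA-Seq V2) and sequenced as paired ends on a SOLiD 5500xl, and LifeScope (mapping to mm10) and edgeR were the tools named by the authors. The authors deposited a table of RPKM for 12 animals. The counting tool, the gene annotation and the use of strand are not given in the sources used here. RPKM are not counts, so no count test was run, and reads per library were estimated from the steps of the RPKM of genes shorter than 200 nt (96.8 to 100.0% of values came out as whole reads within a tolerance of 0.1).

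All transcripts whose mean over the 12 animals reached 0.1 RPKM were tested on log2(RPKM + 0.1) with limma 3.58.1 in R 4.3.3, in a separate fit of each pair of genotypes with no covariate, with Benjamini-Hochberg adjustment over all 21701 transcripts and an FDR threshold of 0.05. The exact two-sided permutation test over 4 against 4 animals cannot go below p = 0.029. Correlations used 100000 resamples. Intervals are 95% confidence intervals of the difference between group means from limma, and the SD describes the spread between animals. Named in every animal were the cutting subunits, their induced counterparts, the activators, Psmf1 and, in each comparison, the 5 members of lowest p. The members and gene lists were chosen with earlier results of these data known. The fits were tested on simulated data. Alternatives were another pseudocount, filter or scaling, sample weights, a joint fit, a replicate block and leaving out each animal. Summaries and correlations were made with scipy 1.17.1 and pandas 2.3.3 under Python 3.11.15, and figures with matplotlib 3.10.9. The values of 1 related gene are not reported here.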

Additional observations from a re-analysis of the deposited data

Results flagged for a closer look

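In 9 of 147 sets of 4 animals (each member in each genotype), 1 animal lay farther from the other 3 than Dixon's 95% critical value for the gap over the range allows. Chance flags about 1 in 20 such sets. In Wfs1KO replicate 4, Psmb8 was lowest at 24.97 RPKM. In Wfs1KO replicate 1, Psma7 was highest at 266.5 RPKM and Psmd8 at 101.71 RPKM. In Wfs1HZ replicate 4, which had the lowest sum of standard 26S subunits, Psmb4 was lowest at 96.97 RPKM, Psmd2 at 12.62 RPKM and Psme3 at 36.46 RPKM. In Wfs1HZ replicate 2, the tissue forms Psmb11 and Psma8 were highest at 2.02 and 1.61 RPKM. In WT replicate 1, Psmg2 was highest at 26.4 RPKM. No cause of these values was tested.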

How the results depend on the processing

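No member passed the FDR under any alternative. Over all transcripts, calls at the FDR numbered 0 in Wfs1KO against WT with a pseudocount of 1 or a replicate block and 1 with all 12 animals in a joint fit, 5 in Wfs1KO against Wfs1HZ with sample weights, and 1 in Wfs1HZ against WT with no filter on low values. Leaving out 1 animal gave 0 to 1 in Wfs1KO against WT. Members with an unadjusted p under 0.05 in Wfs1KO against WT numbered 3 with quantile normalization, all lower (6.12%, against 7.18% of all transcripts), 1 in the joint fit (2.04% against 3.03%), 2 with sample weights (4.08% against 9.52%; Psmb8 at 0.83 and Psmb10 at 0.66) and 0 to 4 with 1 animal left out. In Wfs1KO against Wfs1HZ they numbered 1 with no filter, 2 with quantile normalization, 2 in the joint fit, 3 with sample weights, 3 without Wfs1HZ replicate 2 and Wfs1KO replicate 4, 2 without Wfs1HZ replicate 4 and Wfs1KO replicate 3 (all transcripts 2.9%, 4.27%, 3.22%, 10.3%, 5.9% and 3.27%, members 2.04% to 6.12%), and 0 to 3 with 1 animal left out. In Wfs1HZ against WT they numbered 3 with quantile normalization (6.12% against 4.62%), 4 with sample weights (8.16% against 7.09%) and 1 to 2 with 1 animal left out. The share over all transcripts with 1 animal left out moved too. It ran from 4.23% to 8.62% in Wfs1KO against WT, 1.57% to 6.03% in Wfs1KO against Wfs1HZ and 1.41% to 5.01% in Wfs1HZ against WT. The highest shares of members were 8.16%, 6.12% and 4.08%. The replicate numbers were not taken as pairs in the main fits. Correlations of deviations between animals of the same number ran from -0.174 to 0.228, and not every animal correlated best with its own number. Such correlations cannot show whether animals of the same number were littermates or were processed together. With the replicate block the counts were 1, 0 and 3 (all transcripts 5.03%, 1.82% and 3.94%).

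Directions turned for small differences. With median-of-ratios scaling the values were 0.024 (Psmb6), 0.042 (Psmb9) and 0.045 (Psmf1) in Wfs1HZ against WT, -0.0079 (Psmf1) in Wfs1KO against Wfs1HZ and -0.0089 (Nfe2l1) in Wfs1KO against WT. With quantile normalization they were 0.065 (Psmb6), 0.064 (Psmb9) and 0.070 (Psmf1) in Wfs1HZ against WT, -0.016 (Psmb7) and -0.024 (Psmf1) in Wfs1KO against Wfs1HZ, and -0.029 (Psmb7) and -0.076 (Nfe2l1) in Wfs1KO against WT. With sample weights they were 0.053 (Psmb7), 0.25 (Psmb8), 0.38 (Psmb9) and 0.20 (Psmb10) in Wfs1HZ against WT, and -0.034 (Psmb9) and 0.068 (Psme2) in Wfs1KO against Wfs1HZ. With a pseudocount of 1, Psmf1 was at 0.0032 in Wfs1HZ against WT. Without Wfs1HZ replicate 4 and Wfs1KO replicate 3, Psmb9 was at -0.035 and Psmf1 at -0.04, and without Wfs1HZ replicate 2 and Wfs1KO replicate 4, Psme2 was at 0.27 in Wfs1KO against Wfs1HZ. The causes were not tested.

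With 1 animal left out, Wfs1KO against WT ranged from -0.45 to 0.23 (Adrm1), -0.20 to 0.72 (B2m), -0.056 to 0.10 (Nfe2l1), -0.020 to 0.13 (Pomp), -0.021 to 0.24 (Psmb5), -0.14 to 0.22 (Psmb7), -0.0093 to 0.47 (Psme1), -0.13 to 0.090 (Psme4), -0.049 to 0.17 (Psmf1), -0.0041 to 0.40 (Usp14), 0.050 to 0.59 (Psmb9) and 0.70 to 2.15 (Psmg3). Wfs1KO against Wfs1HZ ranged from -0.044 to 0.28 (Psmb7), 0.055 to 0.59 (Psmb9), -0.19 to 0.36 (Psme2) and -0.14 to 0.26 (Psmf1). Wfs1HZ against WT ranged from -0.29 to 0.25 (Psmb6), -0.32 to 0.12 (Psmb7), -0.39 to 0.11 (Psmb8), -0.21 to 0.21 (Psmb9), -0.43 to 0.12 (Psmb10) and -0.19 to 0.21 (Psmf1). The estimated depth, down to 1.1 reads for Psmg3 in 1 animal, limits the members of low level.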
